A study of Mus musculus with 2 samples.

Results

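Expression of 38 cell-cycle genes was followed across the cell classes of the mouse embryonic heart in 2 single-cell libraries. They were chosen by name and function and not by level, and all 38 were found by Ensembl identifier among the 22401 features of the count matrices. The set holds 17 genes of S phase, 15 genes of G2 and mitosis, and 6 regulators of G1 (the D cyclins Ccnd1, Ccnd2 and Ccnd3, the transcription factor gene Mycn, and the Cdk inhibitors Cdkn1a and Cdkn1b).

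Whole hearts at E11.5 (mid-gestation) were dissociated and captured with 10x Genomics 3′ chemistry, with 1 library per genotype. The library called Control came from embryos of genotype Hand2fx/+R26RmTmG/wt, with 1 floxed Hand2 allele and no Cre. The library called H2CKO came from embryos of genotype Nfatc1Cre/wtHand2fx/fxR26RmTmG/wt, in which Nfatc1-Cre, active in the endocardium, acts on floxed Hand2 alleles. A single mTmG reporter allele was present in each genotype. The controls lacked Cre, so Cre itself and Hand2 loss cannot be told apart, and the number of embryos in each library is not given in the sources used here. There is no replicate check: all differences are between 2 libraries, and the 95% intervals cover counting error only.

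Cells that divide copy their DNA in S phase and separate it in mitosis. E2F factors switch on the S genes, and the G2/M genes are read later, through CHR and CCAAT elements in their promoters. D cyclins with Cdk4 and Cdk6 free E2F from the retinoblastoma protein, and the Cdk inhibitors hold the cycle back. In the midgestation heart the compact wall is known to divide more than the trabeculae, and the myocardium of the atrioventricular canal and of the conduction system divides slowly.

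The promoter classes behind this order can be read in the members themselves. RefSeq promoters (GRCm38.p6, 250 bases before to 50 after the start of transcription) matched 30 of the 38 genes. The CHR letters TTTGAA, searched on both strands, occurred in a promoter of 9 of 12 G2/M genes (75.0%) and of 1 of 14 S genes (7.14%), against 20.2% of all 27025 genes with promoters of this length in the table. E2F letters (TTTCCCGC, TTTGGCGC, TTTCGCGC or TTTGCCGC, both strands, matches may overlap) occurred in 6 of 14 S genes (42.9%) and 1 of 12 G2/M genes (8.33%), against 2.6% of all genes. CCAAT, both strands, occurred in 11 of 12 G2/M genes (91.7%), 9 of 14 S genes (64.3%) and 41.1% of all genes. These are letter matches, not measured binding. The 250 bases upstream of 4 genes are printed 5′ to 3′ on the gene's own strand, with matches in capitals. In each the match may be on the other strand, where CCAAT reads ATTGG. Cdc20 and Mki67 are shown because both are G2/M genes with CHR and CCAAT letters, yet lie on opposite sides of the comparison of the libraries in every named class, and Mcm6 and Mcm7 because they carry the E2F letters of S genes.
Cdc20, chr4:118437344-118437593, minus strand: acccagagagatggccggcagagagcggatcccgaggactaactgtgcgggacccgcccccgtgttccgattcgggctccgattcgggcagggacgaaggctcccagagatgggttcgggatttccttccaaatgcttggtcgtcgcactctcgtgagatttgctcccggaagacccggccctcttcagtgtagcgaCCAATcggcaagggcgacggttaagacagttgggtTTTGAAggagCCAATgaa
Mki67, chr7:135716380-135716629, minus strand: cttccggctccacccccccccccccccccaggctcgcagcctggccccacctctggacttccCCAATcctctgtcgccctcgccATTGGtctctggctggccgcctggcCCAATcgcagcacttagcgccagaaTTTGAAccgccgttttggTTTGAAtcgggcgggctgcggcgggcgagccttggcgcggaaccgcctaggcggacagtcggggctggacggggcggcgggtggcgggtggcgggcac
Mcm6, chr1:128359706-128359955, minus strand: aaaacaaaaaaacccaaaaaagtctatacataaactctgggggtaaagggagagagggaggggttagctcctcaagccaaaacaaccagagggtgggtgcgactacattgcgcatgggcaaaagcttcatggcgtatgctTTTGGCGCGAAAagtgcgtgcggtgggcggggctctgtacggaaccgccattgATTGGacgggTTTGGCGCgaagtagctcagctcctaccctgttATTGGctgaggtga
Mcm7, chr5:138171884-138172133, minus strand: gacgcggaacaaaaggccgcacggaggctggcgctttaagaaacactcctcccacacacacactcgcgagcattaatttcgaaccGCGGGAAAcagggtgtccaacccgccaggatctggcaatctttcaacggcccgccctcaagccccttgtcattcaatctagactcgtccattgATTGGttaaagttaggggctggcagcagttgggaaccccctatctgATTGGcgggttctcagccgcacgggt
In Cdc20 the CHR letters lie between CCAAT boxes close to the start. In Mki67 the CHR letters occur at a pair of places downstream of 3 CCAAT letters, and in Mcm6 E2F matches on both strands overlap in TTTGGCGCGAAA.

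The Control matrix held 14114 barcodes and 195825720 unique molecular identifiers (UMIs, each 1 captured molecule), and the H2CKO matrix 13885 barcodes and 201477256 UMIs. After filters on genes, mitochondrial share and doublet score, 9251 Control and 11413 H2CKO cells were kept, with a median of 16439 and 13377 UMIs per cell, and 57 barcodes were shared between the matrices (29 among kept cells). Clustering without 151 cell-cycle genes gave 19 clusters, of which 15 were named from markers, always as "-like". The cardiomyocyte-like class had 2624 Control and 3696 H2CKO cells, the mesenchymal-like class 1643 and 1067, the epicardial-like class 707 and 211, the endothelial-like class 407 and 745, the erythroid-like class 2736 and 4927, and the white-blood-cell-like class 78 and 106. All markers of each class were detected in that class in both libraries. A cluster led by Rspo3 and Isl1 (419 and 495 cells) stayed unnamed: it held all 12 cardiomyocyte markers, but its best-scoring list was smooth muscle, whose 7 markers summed to 5812 and 6122 CPM there and to 4106 and 2752 CPM in the cardiomyocyte-like class. Levels are given as CPM, the UMIs of a gene scaled to a total of 1000000 UMIs for the cells summed. Hand2 was 223 and 11.04 CPM in the endothelial-like class and 76.0 and 73.0 in the cardiomyocyte-like class. In the mesenchymal-like class it fell from 177 to 47.2 CPM. Free RNA made up 1.74% to 4.09% of UMIs. It was estimated from the haemoglobin share of the median cell in non-erythroid classes and from summed cardiomyocyte markers in erythroid-like cells. In non-erythroid classes it thus describes the median cell and not levels summed over cells. In H2CKO mesenchymal-like cells haemoglobin was 7146 CPM in the median cell, while erythroid markers summed over cells were 52480 CPM.

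A high share of cells in every class carried cell-cycle transcripts. To read cells at equal depth, each cell was thinned to 5000 UMIs, and shallower cells were left out. Differences between the libraries still changed with the depth chosen, as given below. A cell with at least 3 UMIs of the 15 G2/M genes was called G2/M-high. A cell with at least 3 UMIs of the 17 S genes was called S-high. In Control, 74.1% of cardiomyocyte-like cells were G2/M-high (95% exact interval 72.1 to 76.0, of 1971 cells). The share was 85.9% in white-blood-cell-like, 74.0% in erythroid-like, 62.1% in mesenchymal-like, 49.9% in Rspo3-Isl1, 49.3% in endothelial-like and 48.4% in epicardial-like cells. The last 3 differed from each other by less than their intervals. S-high cells ordered the classes in another way: 92.2% of white-blood-cell-like, 86.5% of epicardial-like, 81.4% of mesenchymal-like, 80.2% of endothelial-like, 73.2% of cardiomyocyte-like, 51.9% of erythroid-like and 50.4% of Rspo3-Isl1 cells. Epicardial-like and endothelial-like cells were thus rich in S genes and poorer in G2/M genes: 41.9% and 35.5% were S-high only, against 17.7% of cardiomyocyte-like cells, and 3.85% and 4.70% G2/M-high only, against 18.6%. These are ranges on a count and not separate states, since between 7.0% and 22.3% of cells in a class lay within 1 UMI of the G2/M limit. Haemoglobin takes up most UMIs of erythroid-like cells, and with it left out before thinning 96.2% of the 1859 Control cells still deep enough were G2/M-high and 89.3% S-high, while the G2/M-high shares of the other named classes were then 48.4% to 84.4%. Free RNA alone would give 0.166 to 0.432 G2/M UMIs per thinned cell.

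**Figure D1:**
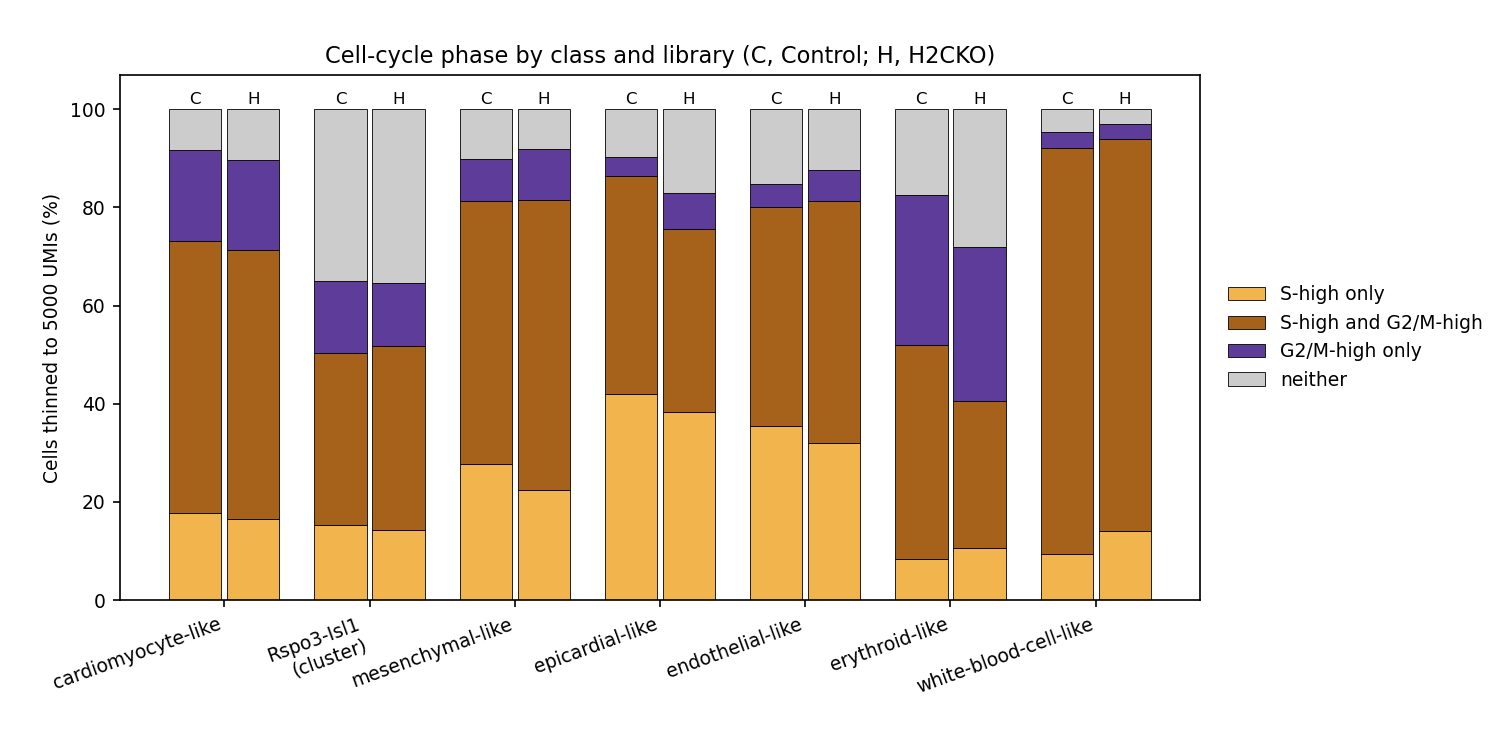
Stacked bars give the percentage of cells thinned to 5000 UMIs that were S-high only, both S-high and G2/M-high, G2/M-high only or neither, by class, with Control (C) beside H2CKO (H). The share with neither is near 35% in Rspo3-Isl1 cells of both libraries and goes from 17.6% to 28.0% in erythroid-like cells.

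The lists behaved as sets within cells. With each gene left out of its own list in turn, cells that were high on the other genes held a UMI of that gene more often, with intervals that did not overlap, for 15 of 15 G2/M genes in cardiomyocyte-like, mesenchymal-like and erythroid-like cells of both libraries. The same held for 17 of 17 S genes there, except in H2CKO mesenchymal-like cells, where it held for 15 of 17. Cells that were high on both lists also held more RNA before thinning. In the cardiomyocyte-like class their median was 30066.5 UMIs in Control against 18965 in cells with neither (1.58-fold) and 20950 against 12954 in H2CKO (1.62-fold). The ratio lay between 1.34 and 2.24 in all classes of both libraries.

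Clusters with cardiomyocyte markers differed in their shares. A shallow cardiomyocyte-like cluster led by Actc1 and Tnnc1 (823 Control and 184 H2CKO cells, medians of 1792 and 1788.5 UMIs) is not compared here. In it 78.1% and 91.3% of cells were too shallow to thin. The class was thus made up differently in the libraries. In the largest cardiomyocyte-like cluster, led by Tnni2 and Ckm (fast-type troponin I and muscle creatine kinase), 80.1% of Control and 82.6% of H2CKO cells were G2/M-high. In the cluster led by Nppa and Nppb, the natriuretic peptide genes of trabecular and atrial muscle, the shares were 70.7% and 62.4%, at -9.42 points from Tnni2-Ckm in Control (95% interval -13.7 to -5.12) and -20.2 points in H2CKO (-23.4 to -16.99). In the cluster led by Bmp2 and Tbx3, a signal and a repressor of the atrioventricular canal, they were 44% and 39.8%, at -36.1 points (-46.4 to -25.5) and -42.8 points (-50.5 to -34.8) from Tnni2-Ckm. The unnamed Rspo3-Isl1 cluster stood at -30.2 and -32.4 points. An unnamed cluster led by Stard10 and Nr2f1, with all 12 cardiomyocyte markers, had 48.6% G2/M-high cells in Control (38.8 to 58.5) and the same share of S-high cells, and held 108 Control and 4 H2CKO cells. A small cardiomyocyte-like cluster led by Mb and Ppp1r1b (63 and 122 cells), also rich in Nppa, Gja5 and Cited1, went against the low share of Nppa-Nppb cells: its G2/M-high shares were 84.1% and 79.8%. Its barcodes held a median of 22.1% and 26.6% haemoglobin UMIs and 35178 and 26268 UMIs in all, and may hold more than 1 cell. Bmp2-Tbx3 and Rspo3-Isl1 cells thus lay below both larger clusters in each library, and their S-high shares lay at 36.7% to 51.8% against 78.3% and 77.7% in Tnni2-Ckm. With genes that correlate with the cycle also left out of the clustering, an alternative added after seeing the data, Nppa-Nppb cells stood at -8.20 points in Control and -5.92 in H2CKO, and Bmp2-Tbx3 cells at -29.3 and -27.1. The genotype difference of -8.33 points in Nppa-Nppb cells (-12.6 to -3.93) then became 0.154.

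The order was also read along a list of trabecular genes (Nppa, Nppb, Gja5, Irx3, Cited1 and Slit2). Cells of the Tnni2-Ckm and Nppa-Nppb clusters were pooled, ordered by their UMIs of this list and split into 4 groups of 407 Control and 790 or 791 H2CKO cells each. In Control the G2/M-high share was 80.3%, 76.4% and 80.1% in the lower groups and 67.1% (62.3 to 71.6) in the top group. In H2CKO it was 80.7%, 74.8%, 72.5% and 70.5% (67.2 to 73.7). The cells richest in trabecular transcripts had the lowest share in both libraries, with an interval apart from that of the cells poorest in them.

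**Figure D2:**
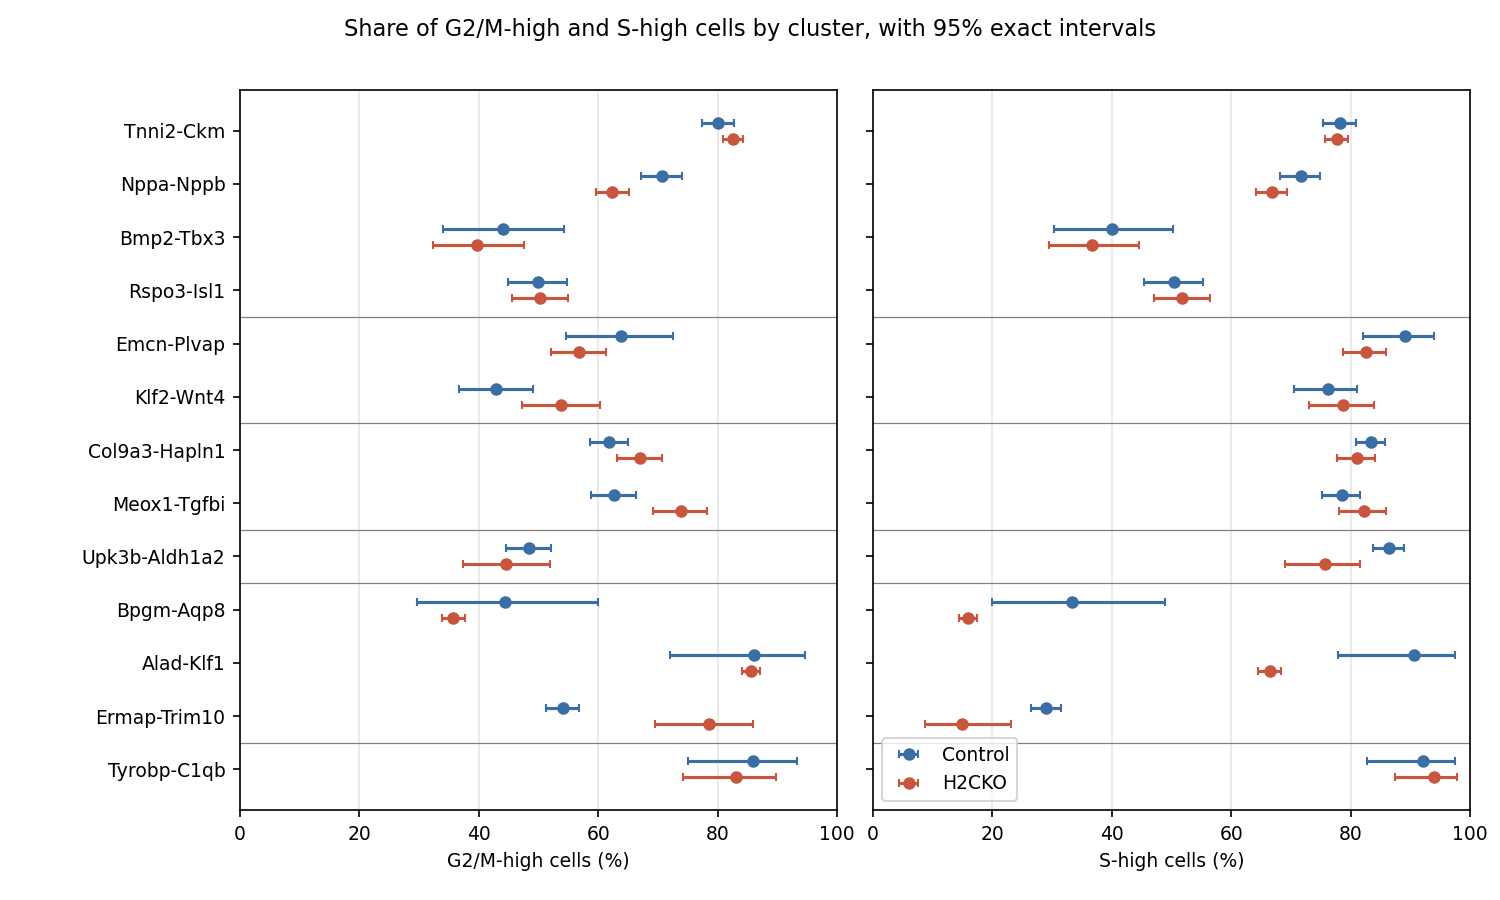
Points give the percentage of G2/M-high (left) and S-high (right) cells in 13 clusters, named by their leading genes, for Control and H2CKO, with bars for 95% exact intervals. Bmp2-Tbx3 and Rspo3-Isl1 cells lie below Tnni2-Ckm and Nppa-Nppb cells in both libraries, and Klf2-Wnt4 lies below Emcn-Plvap in Control.

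Between the genotypes, the share of G2/M-high cells differed by less than the counting interval in the cardiomyocyte-like class taken whole and was higher in H2CKO among mesenchymal-like cells. In the cardiomyocyte-like class it was 74.1% in Control and 73.1% in H2CKO, a difference of -1.03 points (95% interval -3.47 to 1.45), with 24.9% of Control and 6.28% of H2CKO cells left out as too shallow to thin (80.6% and 86.6% without thinning, and a difference of -7.59 points with the stricter cell filter, which kept 1535 Control and 393 H2CKO cells that could be thinned), and in Rspo3-Isl1 cells the difference was 0.346 points (-6.51 to 7.20). The median mitochondrial share of UMIs was higher in H2CKO in each named class, at 4.03% and 7.03% in cardiomyocyte-like, 3.60% and 4.96% in endothelial-like and 2.82% and 3.81% in mesenchymal-like cells, and its part in these differences was not tested beyond the stricter filter. In the mesenchymal-like class it was 62.1% and 69.6%, a difference of 7.496 points (3.71 to 11.2). Its cluster led by Meox1 and Tgfbi had 62.6% and 73.9% (11.3 points, 5.36 to 17.04) and its cluster led by Col9a3 and Hapln1, cartilage-type matrix genes of the valve cushions, 61.8% and 66.9% (5.09 points, 0.119 to 9.99). The S-high share of the class was 81.4% and 81.5%. In this class the summed mesenchymal markers were 9324 and 4868 CPM and erythroid markers 13290 and 52480 CPM, and with barcodes of over 5% haemoglobin UMIs left out the difference was 7.75 points; the part of the lower mesenchymal markers in the result was not tested. Without thinning the shares were 76.6% and 78.2%, a difference of 1.60 points.

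In the endothelial-like class, where Nfatc1-Cre acts, 49.3% and 55.7% of cells were G2/M-high, a difference of 6.39 points whose interval ran from 0.00530 to 12.7. The class was made up differently: most Control cells (281 of 407) fell in the cluster led by Klf2 and Wnt4, a flow-responsive factor and a signal of the endocardium, and most H2CKO cells (480 of 745) in the cluster led by Emcn and Plvap. Within Klf2-Wnt4 the share was 42.8% in Control and 53.8% in H2CKO (11.01 points, 1.96 to 19.9). Within Emcn-Plvap it was 63.9% and 56.7% (-7.13 points, -16.9 to 3.26). Klf2-Wnt4 cells therefore stood at -21.1 points from Emcn-Plvap cells in Control (-31.6 to -9.87) and at -2.92 points in H2CKO (-10.96 to 5.10). The difference between these differences was not tested. Mesenchymal markers in the class summed to 3580 and 1060 CPM, and their part in the result was not tested. Without thinning the shares were 66.1% and 69.0%, a difference of 2.90 points, at 10000 UMIs the difference was 14.9 points, and with the stricter cell filter 14.7. With barcodes of over 5% haemoglobin left out the class difference was 5.17 points (-1.39 to 11.7).

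Epicardial-like cells had 86.5% and 75.6% S-high cells, a difference of -10.8 points (-17.9 to -4.31) over 701 and 193 thinned cells, while G2/M-high shares were 48.4% and 44.6% (-3.80 points, -11.9 to 4.42). With phases taken from list scores the S difference turned to 4.005 points, at 10000 UMIs it was -0.692, and with haemoglobin left out -4.22. The G2/M difference turned to 14.0 points at 10000 UMIs. Erythroid markers in the class summed to 15310 and 47600 CPM, and their part in the result was not tested beyond leaving out haemoglobin. White-blood-cell-like cells differed by -2.94 G2/M-high points (-14.5 to 9.95) over 64 and 100 cells. In that class megakaryocyte markers summed to 2508 and 806 CPM and cardiomyocyte markers to 3971 and 1497 CPM, and among cells of the deposited embedding it separated into 92 megakaryocyte-like and 54 white-blood-cell-like cells. In an unnamed cluster led by Tcf21 and Hic1 the G2/M-high share was 60.7% and 78.5% (17.8 points, 5.09 to 29.4).

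Erythroid-like cells, the blood that fills the heart, had 74.0% and 61.5% G2/M-high cells (-12.54 points, -14.7 to -10.3) and 51.9% and 40.5% S-high cells (-11.4 points, -13.8 to -9.06). Different clusters held this class in each library. Of the 2736 Control cells 1315 were in Ermap-Trim10, and most H2CKO cells were in Bpgm-Aqp8 (2429 cells) and Alad-Klf1 (2291 cells), so library and cluster cannot be told apart. Within clusters the G2/M-high share did not keep 1 direction: it was 54.0% and 78.5% in Ermap-Trim10 (24.4 points, 15.04 to 32.3), 86.0% and 85.6% in Alad-Klf1 (-0.415 points) and 44.4% and 35.7% in Bpgm-Aqp8 (-8.71 points, -24.4 to 6.22). The S-high share was the lower in H2CKO in all 3, by -14.0 to -24.2 points. A median of 66.3% and 69.0% of their UMIs were haemoglobin, and with haemoglobin left out before thinning 96.2% of 1859 Control cells and 98.1% of 1453 H2CKO cells were G2/M-high (1.89 points), and the difference in S-high cells was 1.28 points. Fewer cells were deep enough to enter there, and nearly all were G2/M-high in both libraries, so little difference could show. With a stricter cell filter the G2/M-high difference turned to 8.49 points. Without Mki67 in the list it was -3.82 points (60.4% and 56.5%).

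Few single members differed past 2-fold between the genotypes. A gene was called past 2-fold where its ratio of CPM, with 5 CPM added, was at least 2-fold and its higher library had at least 20 CPM and 20 UMIs. Of 38 members, 37 could be called in cardiomyocyte-like cells, 36 in mesenchymal-like, 36 in epicardial-like, 38 in endothelial-like, 26 in erythroid-like and 37 in white-blood-cell-like cells. Mcm4 and Mki67 in erythroid-like cells were the only members past 2-fold in a named class, both lower in H2CKO. This count of 2 was 5 with the stricter cell filter and with 12% of cells left out as doublets, 7 among cells of the deposited embedding, 4 when centred on the median gene and 10 in thinned cells. In erythroid-like cells it is 2 of 26 members called there, against 8.17% of all genes called in either direction (7.82% lower) in erythroid-like cells, so the share of members is near the background. No member passed in the other classes, where 1.08% of all genes called were past 2-fold in cardiomyocyte-like, 3.68% in mesenchymal-like, 5.31% in epicardial-like, 7.92% in endothelial-like and 10.4% in white-blood-cell-like cells, and 1.87% in Rspo3-Isl1 cells.

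At the finer level of clusters, added after seeing the data, more members passed, most of them in blood. In Ermap-Trim10 (1315 Control and 111 H2CKO cells) 13 of 26 members called were past 2-fold, against 4.09% of all genes. There 6 S genes fell: Mcm2, Mcm3, Mcm4, Mcm6, Pcna and Slbp, with Pcna from 61.0 to 23.7 CPM (-1.20 on the log2 scale). In the same cells 7 G2/M genes rose: Ccnb1, Birc5, Aurka, Aurkb, Ube2c, Plk1 and Cdc20, with Cdc20 from 25.2 (23.1 to 27.4) to 87.1 CPM (73.8 to 102). The S and G2/M genes past 2-fold in this cluster thus went in opposite directions. Its H2CKO cells depended on the setting. The cluster with Ermap and Trim10 among its leading genes held 35 at resolution 2, 498 without doublet removal and 825 with 12% of cells left out as doublets. The calls were not repeated in these settings. In Bpgm-Aqp8 (82 and 2429 cells) 8 of 19 fell, against 21.3% of all genes, and in Alad-Klf1 (46 and 2291 cells) 5 of 28, against 11.3%. Mcm6, Pcna, Rrm1 and Mki67 were among them in both. Outside blood 1 member fell in Klf2-Wnt4 (Ccnd1, against 3.7% of all genes), 1 in Emcn-Plvap (Ccne2, 61.0 to 23.4 CPM, against 9.39%) and 2 in Tcf21-Hic1 (Mki67, and Cdkn1a from 68 UMIs to 4, against 7.54%). No member passed in Tnni2-Ckm (2.0% of all genes), Nppa-Nppb (0.998%), Bmp2-Tbx3 (2.87%), Col9a3-Hapln1 (5.94%) or Meox1-Tgfbi (3.12%).

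Of the G2/M genes, Mki67 (chr7:135689784-135716361, the Ki-67 antigen that coats mitotic chromosomes) was lower in H2CKO in all 6 named classes. In erythroid-like cells it fell from 557 CPM (551 to 564) to 138 CPM (136 to 141), -1.97 on the log2 scale. It was 321 and 165 CPM in white-blood-cell-like, 209 and 120 in mesenchymal-like, 189 and 94.1 in epicardial-like, 188 and 128 in endothelial-like and 176 and 132 in cardiomyocyte-like cells. Control erythroid-like cells therefore had the highest level of any class, and in H2CKO the classes lay within 94.1 to 165 CPM. The lower level was also seen within erythroid-like clusters: 352 and 71.7 CPM in Bpgm-Aqp8, 478 and 181 in Alad-Klf1, and 356 and 206 in Ermap-Trim10. Mki67 made up 32.9% of the UMIs of the G2/M list in Control erythroid-like cells and 11.8% in H2CKO. The summed list there was 1692 and 1170 CPM, a ratio of 0.692 (0.685 to 0.698), and without Mki67 it was 1135 and 1032 CPM, a ratio of 0.909 (0.899 to 0.919).

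Top2a (topoisomerase II, which untangles sister chromatids) was also lower in all 6 classes, from 469 and 352 CPM in mesenchymal-like to 182 and 93.0 CPM in erythroid-like cells (-0.93 on the log2 scale). Its other levels were 350 and 280 CPM in cardiomyocyte-like, 337 and 196 in epicardial-like, 357 and 273 in endothelial-like and 418 and 288 in white-blood-cell-like cells. Bub1, a spindle checkpoint kinase gene, was lower in all 6 classes, by log2 values of -0.94 to -0.32.

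Cdc20 (chr4:118432901-118437352), which activates the ubiquitin ligase that ends metaphase, went the other way. It was 61.7 CPM (56.0 to 67.8) in Control and 125 CPM (118 to 132) in H2CKO endothelial-like cells, 0.96 on the log2 scale with 5 CPM added, just inside the 2-fold limit. It was 102 and 156 CPM in mesenchymal-like, 58.1 and 86.3 in cardiomyocyte-like, 59.6 and 86.9 in epicardial-like, 114 and 131 in white-blood-cell-like and 32.2 and 38.1 in erythroid-like cells. Cdk1, the mitotic kinase gene, and Ccnb2, a B cyclin gene, were likewise higher in H2CKO in all 6 classes, Cdk1 by log2 values of 0.18 to 0.84 and Ccnb2 by 0.03 to 0.50. Ccnb1, the other B cyclin gene, was between 47.0 and 114 CPM in Control and 43.8 and 125 in H2CKO, with log2 values of -0.09 to 0.31.

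The other G2/M members did not keep 1 direction. Ube2c, the ubiquitin-conjugating enzyme of the same ligase, had the highest levels of the list in cardiomyocyte-like cells (476 and 609 CPM), with log2 values of -0.00 to 0.67 over the classes. Birc5 (-0.04 to 0.52), Aurka (-0.05 to 0.75) and Aurkb (-0.21 to 0.52), which encode survivin and the Aurora kinases, were higher in 5 of 6 classes. Tpx2 (-0.75 to 0.11), a spindle assembly factor, was lower in 5 of 6, and Cenpf (-0.58 to 0.04), Ccna2 (-0.27 to 0.11) and Plk1 (-0.85 to 0.39) in 4 of 6. The summed G2/M list was 1894 and 2315 CPM in endothelial-like cells (ratio 1.22, 1.196 to 1.25), 2744 and 2835 in mesenchymal-like (1.03), 2317 and 2362 in cardiomyocyte-like (1.02), 1971 and 1758 in epicardial-like (0.892) and 2687 and 2290 in white-blood-cell-like cells (0.852). In endothelial-like cells the median log2 ratio of the 15 G2/M genes was 0.39, beside -0.27 over all genes called there, and in mesenchymal-like cells 0.20 beside -0.23.

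**Figure D3:**
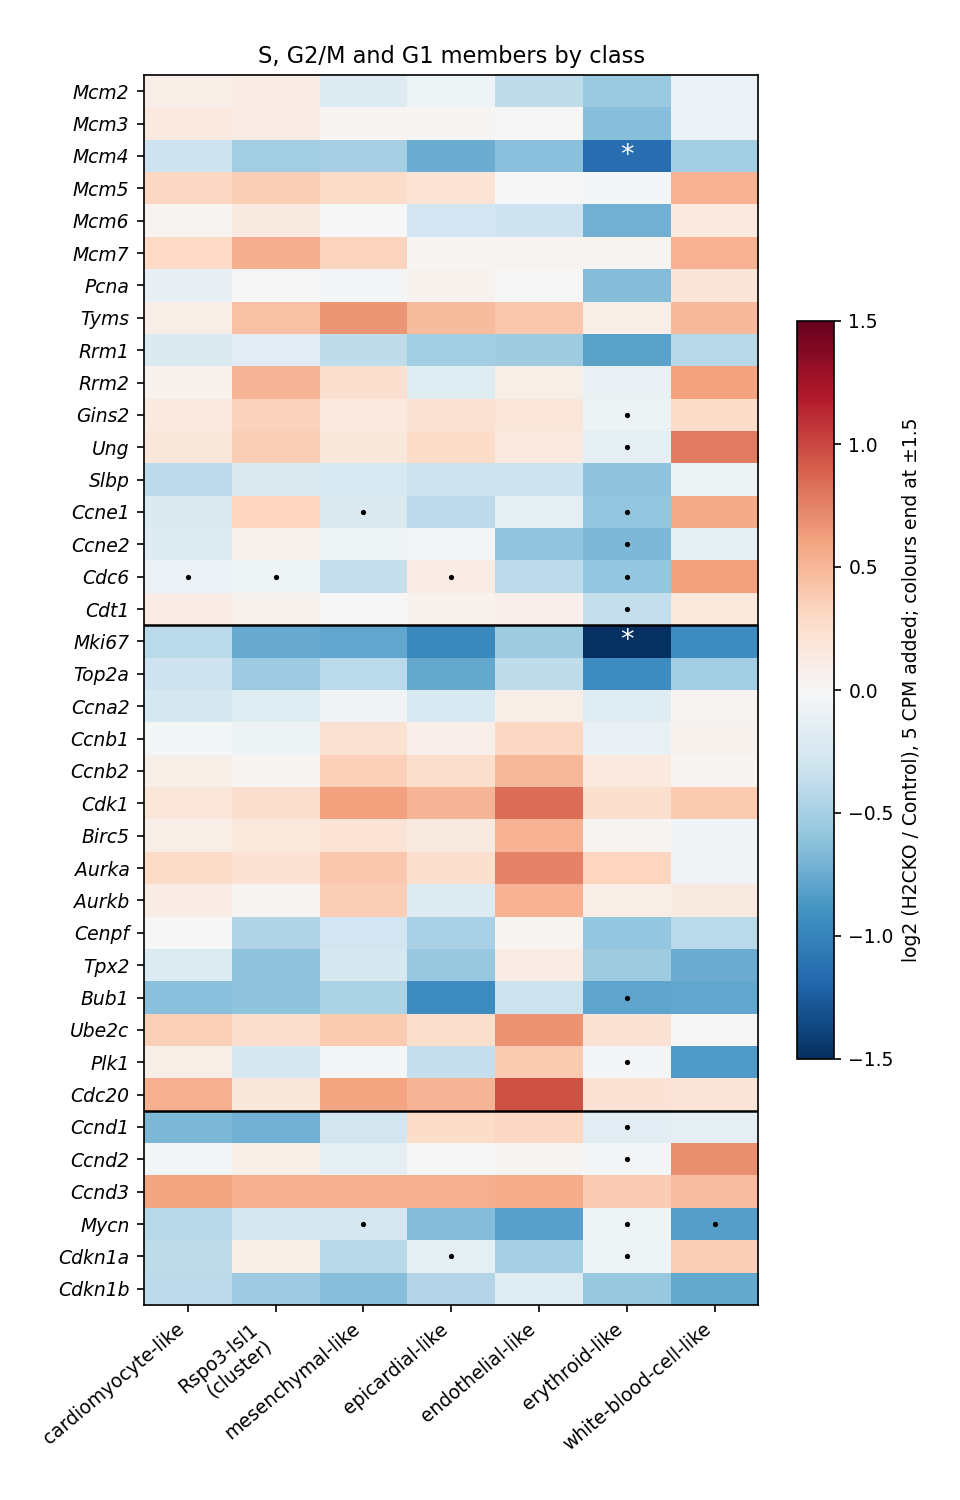
Each cell of the map gives the log2 ratio of H2CKO over Control (5 CPM added) for a gene (vertical) in a class (horizontal), with S genes at the top, G2/M genes in the middle and G1 regulators at the bottom. Stars mark Mcm4 and Mki67 in erythroid-like cells, the only members past 2-fold in these columns, dots mark genes too low to be called, and Ccnd3 is above 0 in every column.

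Of the S genes, Mcm4 (chr16:15623897-15637400), a subunit of the replicative helicase, fell from 26.3 CPM (24.9 to 27.8) to 9.15 CPM (8.44 to 9.90) in erythroid-like cells, -1.15 on the log2 scale, and was lower in all 6 classes. Mcm7 of the same helicase had log2 values of 0.01 to 0.53, with an interval of the ratio above 1 in 3 of 6 classes. Mcm6 was 77.4 and 79.8 CPM in cardiomyocyte-like, 111 and 111 in mesenchymal-like, 111 and 89.9 in epicardial-like, 151 and 121 in endothelial-like, 46.7 and 26.5 in erythroid-like and 143 and 159 in white-blood-cell-like cells. Mcm2 (-0.56 to 0.10), Mcm3 (-0.63 to 0.15) and Mcm5 (-0.03 to 0.52) had both signs.

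Pcna, the sliding clamp of DNA polymerase, was nearly level outside blood: 160 and 147 CPM in cardiomyocyte-like, 154 and 153 in mesenchymal-like, 147 and 153 in epicardial-like and 173 and 173 in endothelial-like cells. It was 121 and 75.8 CPM in erythroid-like and 207 and 238 in white-blood-cell-like cells. Of the genes that supply nucleotides, Rrm2 (ribonucleotide reductase) was 131 and 136 CPM in cardiomyocyte-like, 114 and 135 in mesenchymal-like, 66.5 and 57.8 in epicardial-like, 96.9 and 103 in endothelial-like, 89.5 and 82.3 in erythroid-like and 83.7 and 130 in white-blood-cell-like cells. Its partner Rrm1 was lower in all 6 classes (-0.80 to -0.22) and Tyms, thymidylate synthase, higher in all 6 (0.09 to 0.66).

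Ccne2, an E cyclin gene of S entry, was low throughout, from 35.03 and 21.6 CPM in endothelial-like to 19.1 and 10.1 in erythroid-like cells. It was 27.5 and 23.4 CPM in cardiomyocyte-like, 26.4 and 25.1 in mesenchymal-like, 24.1 and 23.6 in epicardial-like and 24.3 and 21.6 in white-blood-cell-like cells. The lower value was in H2CKO each time. Slbp, which binds histone messages, was also lower in all 6 classes (-0.60 to -0.08). Ccne1 (-0.58 to 0.57), Cdc6 (-0.58 to 0.62), Cdt1 (-0.36 to 0.16), Gins2 (-0.07 to 0.28) and Ung (-0.14 to 0.78) had both signs. The summed S list was 1127 and 1123 CPM in cardiomyocyte-like (ratio 0.997), 1449 and 1472 in mesenchymal-like (1.02), 1362 and 1272 in epicardial-like (0.934), 1519 and 1407 in endothelial-like (0.926), 723 and 542 in erythroid-like (0.749) and 1735 and 1934 in white-blood-cell-like cells (1.11). These directions depended on scaling: centred on the median gene, the list was higher in H2CKO in more classes, as given in the last section.

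In all, 6 members were higher in H2CKO in every named class (Ccnd3, Ccnb2, Cdk1, Cdc20, Mcm7 and Tyms), 9 were lower in every class (Mycn, Cdkn1b, Mki67, Top2a, Bub1, Mcm4, Rrm1, Slbp and Ccne2) and 23 had both signs. Of the 26 members that could be called in all 6 classes, 6 were higher in every class and 6 lower, against 17.1% and 34.7% of all genes, so neither count stands far from the background. The interval of the ratio excluded 1 in every class for 3 of the higher members (Tyms, Cdk1 and Ccnd3) and 5 of the lower (Mcm4, Rrm1, Mki67, Top2a and Bub1). The classes share 1 pair of libraries, so 6 classes are not 6 observations. Ratios also ran with transcript length over all genes: Spearman's rho of the log2 ratio with the longest annotated transcript was -0.518 to -0.663 in the named classes and -0.225 to -0.479 over the members called. The 9 lower members had longest transcripts of 2674 to 10061 bases (median 3589, Mki67 the longest) and the 6 higher members 1531 to 4375 bases (median 3410). The part of length in these directions was not tested. The median gene was lower in H2CKO in every class, at log2 ratios of -0.27 to -0.17. Relative to that median gene, the 6 higher members stayed higher in every class and 5 of the 9 lower members stayed lower (Mki67, Top2a, Bub1, Mcm4 and Rrm1), while Mycn, Cdkn1b, Slbp and Ccne2 did not. On that scale 16 members in all were higher in every class and 5 lower. In CPM without haemoglobin and mitochondrial UMIs 10 were higher and 8 lower. The shares of all genes on these scales were not counted. The higher direction rested more on which cells were kept: under the stricter cell filter 2 of the 6 (Tyms and Ccnd3) were higher in every class and all 9 of the others lower, and among cells of the deposited embedding (5 classes) 4 and 8 kept their direction.

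The D cyclins divided the classes more sharply than the genotypes. With counting at the 3′ end their CPM values are set side by side without scaling by length, although ratios between the libraries ran with length. The longest annotated transcripts were 3740 bases for Ccnd1, 6330 for Ccnd2 and 3858 for Ccnd3, and the part of length in their order was not tested. In mesenchymal-like cells Ccnd1 was the main D cyclin, at 447 and 368 CPM (60.7% and 53.0% of D-cyclin UMIs). In cardiomyocyte-like cells it was Ccnd2 in Control, at 49.4% of D-cyclin UMIs against 36.9% for Ccnd3, and Ccnd3 in H2CKO, at 49.4% against 43.3% for Ccnd2. In erythroid-like cells Ccnd3 made up 93.8% and 95.6%. There Ccnd1 was 3.00 and 2.09 CPM, below the 5.31 and 2.65 CPM that free RNA would give, and Ccnd2 11.1 and 10.9 CPM beside 8.27 and 7.39.

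Ccnd1 (chr7:144929931-144939925) spanned the widest range of the D cyclins. After mesenchymal-like cells came epicardial-like cells at 231 and 280 CPM, endothelial-like at 139 and 174, cardiomyocyte-like at 85.2 and 51.4, white-blood-cell-like at 75.1 and 68.2 and Rspo3-Isl1 cells at 57.0 and 32.6. In Control the cardiomyocyte-like and white-blood-cell-like intervals overlapped, and in H2CKO the white-blood-cell-like value lay above the cardiomyocyte-like value. The ratio of H2CKO to Control was 0.603 (0.578 to 0.630) in cardiomyocyte-like cells, 0.572 (0.493 to 0.663) in Rspo3-Isl1 cells and 0.824 (0.795 to 0.854) in mesenchymal-like cells, and above 1 in epicardial-like (1.21) and endothelial-like cells (1.25). Within the endothelial-like class it was 242 and 242 CPM in Emcn-Plvap and 94.6 and 40.8 CPM in Klf2-Wnt4, a pair chosen after its values were seen. The class value is higher in H2CKO, where Emcn-Plvap cells make up more of the class.

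Ccnd2 (chr6:127125162-127152193) was highest in epicardial-like cells (378 and 376 CPM), followed by cardiomyocyte-like (307 and 304), endothelial-like (250 and 257), Rspo3-Isl1 (236 and 254), mesenchymal-like (172 and 154) and white-blood-cell-like cells (83.0 and 137). In Control the endothelial-like and Rspo3-Isl1 intervals overlapped. Ccnd3 (chr17:47505051-47599691) was higher in H2CKO in every class, by log2 values of 0.38 to 0.59. It was 282 and 411 CPM in epicardial-like, 270 and 393 in Rspo3-Isl1, 229 and 346 in cardiomyocyte-like, 215 and 282 in erythroid-like, 179 and 265 in endothelial-like, 151 and 210 in white-blood-cell-like and 118 and 173 in mesenchymal-like cells. This was the most even difference of any member.

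Mycn (chr12:12936093-12941914), a growth factor-responsive relative of Myc that is active in the embryonic heart wall, was highest in epicardial-like cells (49.9 and 30.0 CPM) and cardiomyocyte-like cells (38.5 and 27.6). It was 24.5 and 11.8 CPM in endothelial-like, 24.3 and 19.9 in Rspo3-Isl1, 17.1 and 13.3 in mesenchymal-like and 12.2 and 4.66 in white-blood-cell-like cells. In erythroid-like cells it was 0.721 and 0.459 CPM, below the free-RNA level of 0.943 and 0.604. Among heart muscle clusters it was 44.9 and 33.1 CPM in Tnni2-Ckm and 11.2 and 7.46 CPM in Bmp2-Tbx3, a ratio of 0.248 (0.1601 to 0.368) in Control and 0.226 (0.139 to 0.346) in H2CKO.

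Cdkn1a (chr17:29090976-29100727, which encodes p21) was high in Klf2-Wnt4, Bmp2-Tbx3 and Rspo3-Isl1 cells, clusters with low G2/M-high shares in Control. In Klf2-Wnt4 it was 87.8 and 105 CPM and in Emcn-Plvap 9.12 and 12.8 CPM, a ratio of 9.62 (6.09 to 16.1) in Control and 8.17 (6.38 to 10.6) in H2CKO. In Bmp2-Tbx3 it was 76.7 and 82.0 CPM and in Rspo3-Isl1 78.2 and 83.4, against 32.1 and 22.5 in Tnni2-Ckm, so that Bmp2-Tbx3 stood 2.39-fold (2.02 to 2.82) and 3.65-fold (3.15 to 4.22) above it. Nppa-Nppb did not follow: with a lower G2/M-high share than Tnni2-Ckm, its Cdkn1a was 18.0 and 12.48 CPM, a ratio of 0.561 and 0.556. Nor did Stard10-Nr2f1, where the Control share was 48.6% and Cdkn1a 10.6 CPM (6.78 to 15.8). By class Cdkn1a was 64.2 and 43.9 CPM in endothelial-like cells, the lower in H2CKO although each of their clusters had the higher value there, and Emcn-Plvap cells make up more of the class in H2CKO. It was 40.8 and 54.2 in white-blood-cell-like, 33.9 and 24.1 in mesenchymal-like, 28.3 and 20.6 in cardiomyocyte-like, 11.3 and 9.70 in epicardial-like and 2.36 and 2.06 in erythroid-like cells.

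Cdkn1b (chr6:134920401-134925513, which encodes p27) varied less between classes. It was 54.8 and 33.3 CPM in mesenchymal-like, 47.4 and 33.8 in epicardial-like, 42.1 and 27.3 in Rspo3-Isl1, 37.4 and 27.3 in cardiomyocyte-like, 31.6 and 27.4 in endothelial-like, 24.3 and 12.2 in white-blood-cell-like and 22.3 and 13.4 in erythroid-like cells. The H2CKO value was the lower in each, although not in every class relative to the median gene, and in endothelial-like cells the interval of the ratio (0.867, 0.722 to 1.04) included 1.

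**Figure D4:**
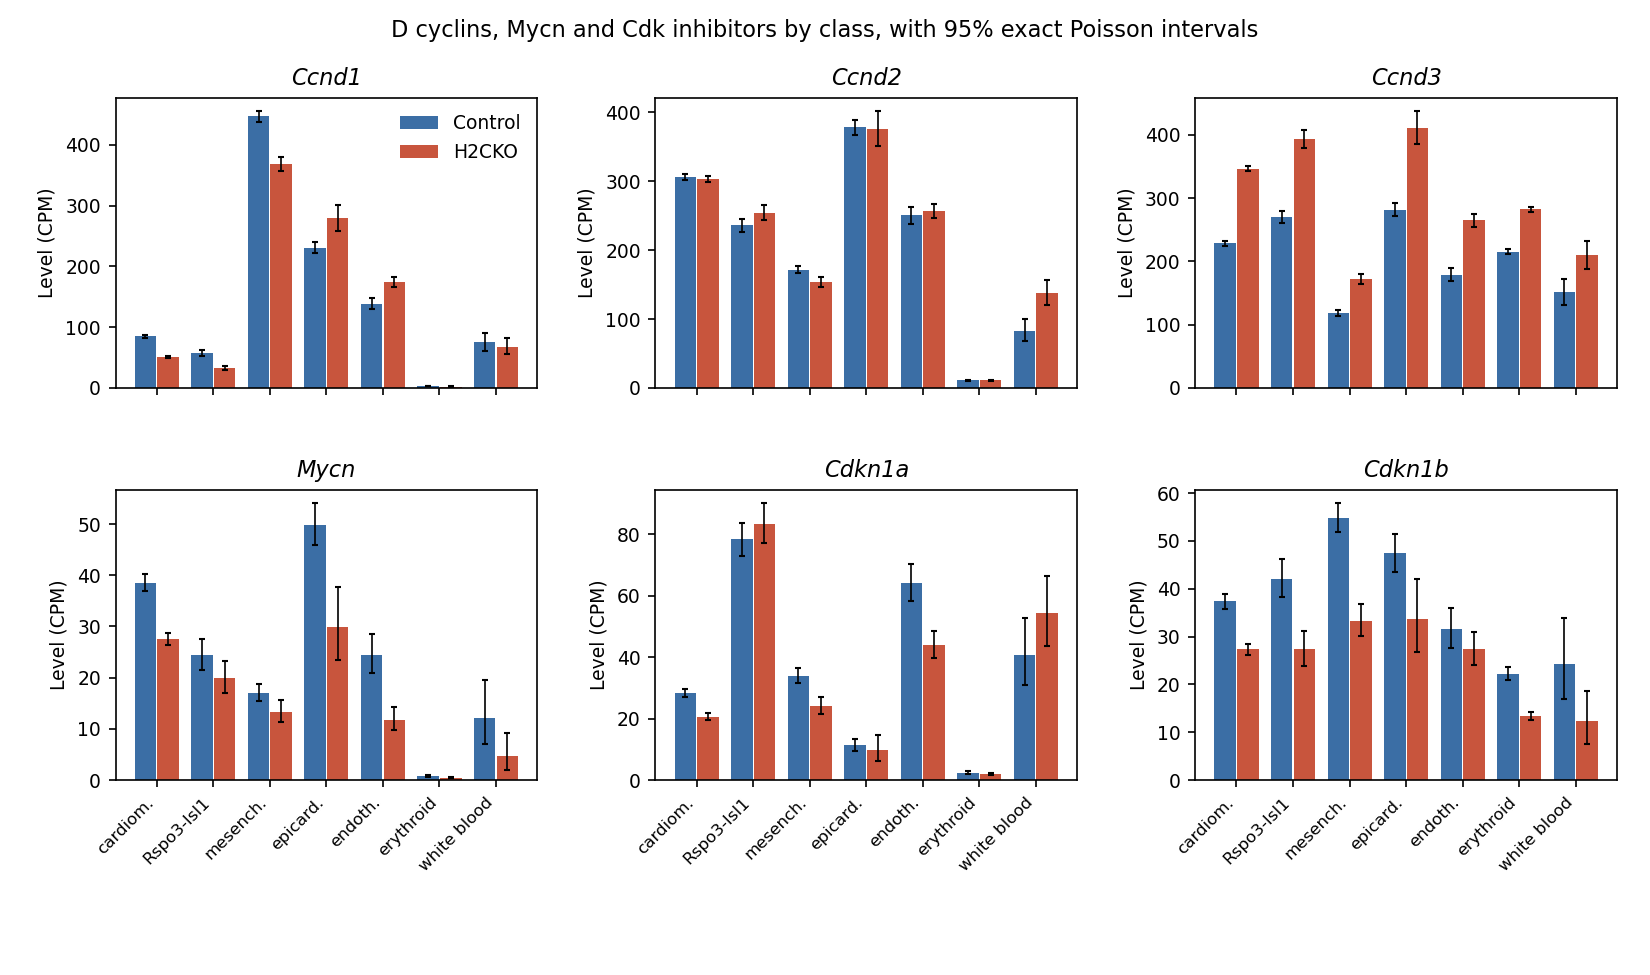
Bars give the level of each G1 regulator in CPM by class for Control and H2CKO, on axes that start at 0 and differ between panels, with 95% exact Poisson intervals. Ccnd1 peaks in mesenchymal-like cells, Ccnd2 and Mycn in epicardial-like cells, and Ccnd1, Ccnd2, Mycn and Cdkn1a are close to 0 in erythroid-like cells.

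G1 regulators were then read by phase within 5 non-blood units (4 classes and Rspo3-Isl1) in both libraries, which gives 10 pairs of values. Ccnd2 was higher in S-high-only than in G2/M-high-only cells in 10 of 10 pairs, with intervals apart in 6. In cardiomyocyte-like cells it was 290 against 219 CPM in Control and 355 against 221 in H2CKO, and in H2CKO mesenchymal-like cells 267 against 96.2. Ccnd1 had the same order in 10 of 10 pairs, with intervals apart in 3. Cdkn1a was higher in cells with neither list than in cells with both in 7 of 10 pairs, with intervals apart in 5. In Rspo3-Isl1 cells the order was the other way in both libraries, at 50.7 against 68.5 CPM in Control and 46.5 (32.8 to 64.2) against 91.7 (72.3 to 114.6) in H2CKO. In cardiomyocyte-like cells it was 69.1 CPM (52.2 to 89.8) against 21.9 (18.2 to 26.2) in Control and 35.1 (27.0 to 44.9) against 18.8 (16.2 to 21.8) in H2CKO. In Control endothelial-like cells it was 124 CPM (86.9 to 172) against 44.4 (31.4 to 61.0). Clusters high in Cdkn1a were not spread evenly over the phases. In Control, Klf2-Wnt4 gave 47 of 58 endothelial-like cells with neither list and 97 of 171 with both. Bmp2-Tbx3 gave 36 of 162 and 20 of 1094 cardiomyocyte-like cells. The part of the clusters in the order of Cdkn1a was not tested. Cdkn1b had the opposite order, with the higher level in cells high on both lists in 9 of 10 pairs, with intervals apart in 1 (Control mesenchymal-like cells, 29.6 against 59.5 CPM). Mycn was higher in cells with neither list in 5 of 10 pairs, and the intervals were apart in 1 pair, where cells with both were the higher (H2CKO cardiomyocyte-like cells, 20.1 against 33.7 CPM).

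**Figure D5:**
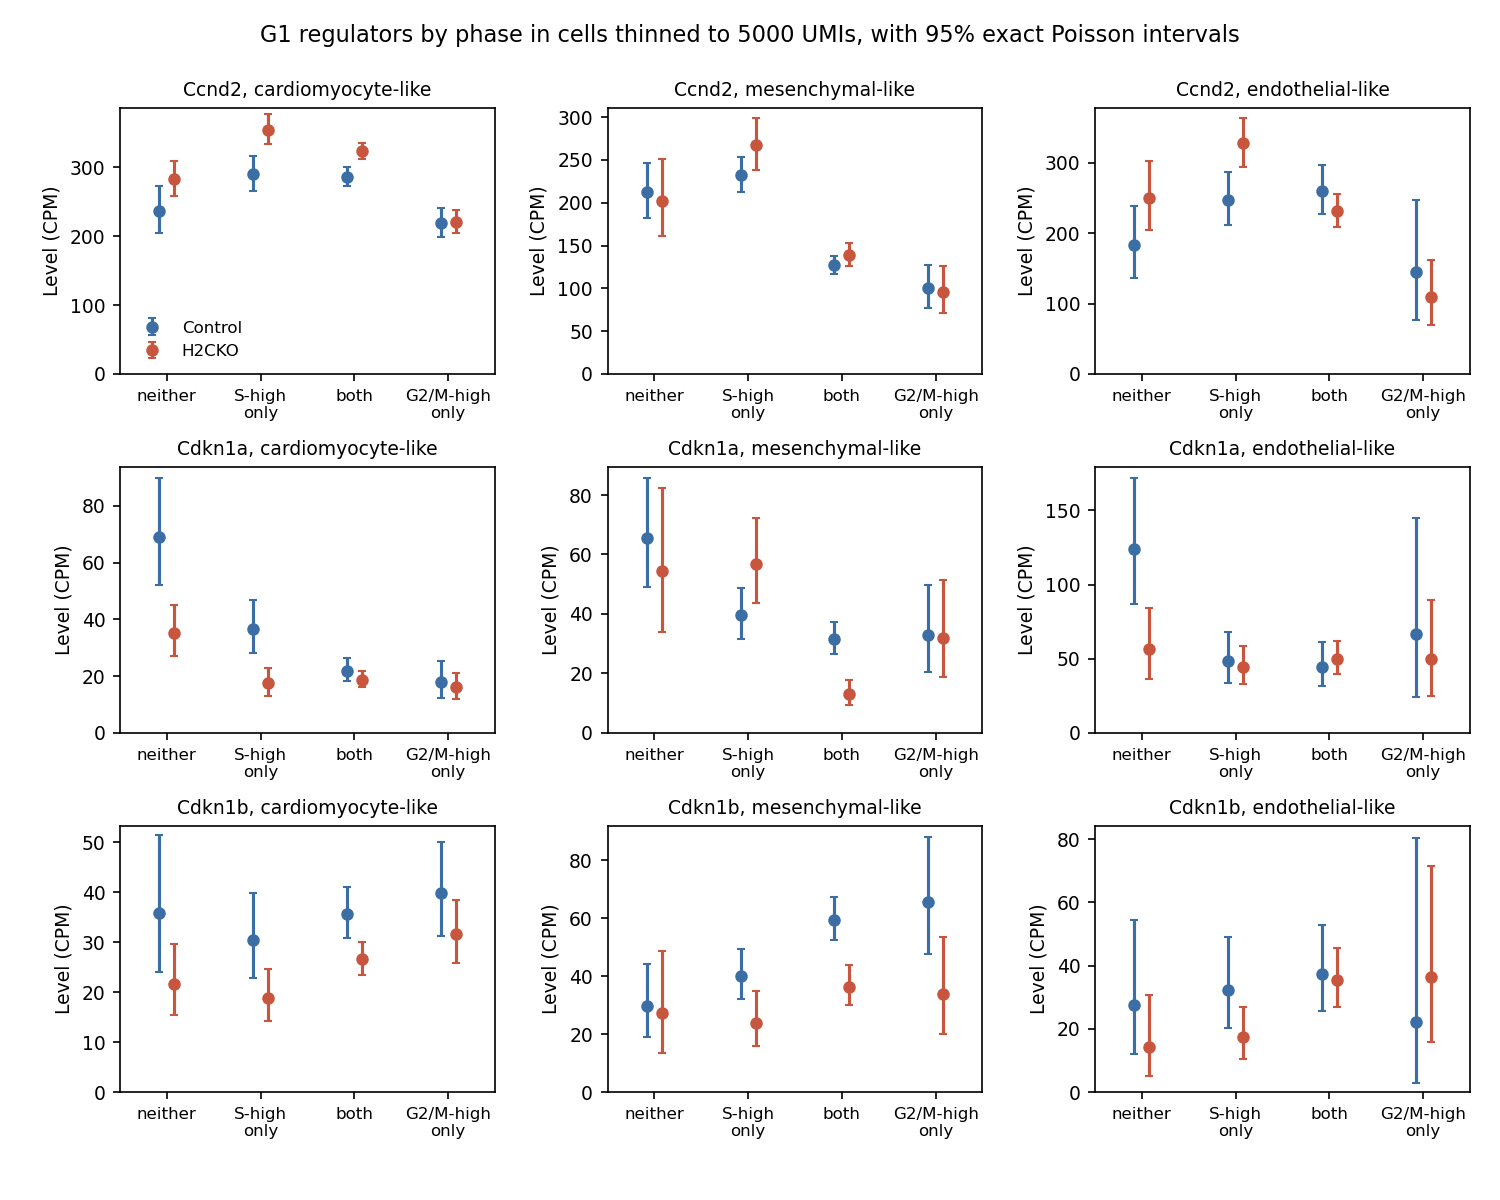
Points give the level in CPM of Ccnd2, Cdkn1a and Cdkn1b in cells with neither list, S-high only, both, or G2/M-high only, in cardiomyocyte-like, mesenchymal-like and endothelial-like cells of Control and H2CKO, with 95% exact Poisson intervals. In Control, Cdkn1a is higher in cells with neither list than in cells with both (69.1 and 21.9 CPM in cardiomyocyte-like, 124 and 44.4 CPM in endothelial-like cells), and Ccnd2 is lowest in G2/M-high-only cells of all 3 classes.

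Of the wider pathway, 29 other S genes, 43 other G2/M genes and 41 other genes of G1, the Rb-E2F switch and the checkpoints were measured, and none was past 2-fold higher in H2CKO in any class. Past 2-fold lower in erythroid-like cells were 4 of 15 other S genes called (Atad2, Casp8ap2, Usp1 and E2f8) and 5 of 29 other G2/M genes called (Kif11, Ncapd2, Lbr, Ckap5 and Cenpe), against 7.82% of all genes there. In white-blood-cell-like cells 5 of 38 other G2/M genes were past 2-fold lower (Ckap2l, Kif11, Ckap5, Cenpe and Nek2), against 9.03% of all genes, in a class whose megakaryocyte markers were also the lower in H2CKO. Their part in the result was not tested. In epicardial-like cells 2 of 38 other G2/M genes (Kif11 and Ect2) and 1 of 23 other S genes (Dtl) did so, against 4.75% of all genes, and no gene of these lists passed in cardiomyocyte-like cells. Single genes passed elsewhere: Gas2l3 in mesenchymal-like and Rspo3-Isl1 cells, Tob1 in endothelial-like cells and Rb1, the retinoblastoma gene, in white-blood-cell-like cells. Genes past 2-fold in 1 class alone were named after their values were seen. Kif11, the motor that sets up the bipolar spindle, fell by 1.17 in epicardial-like, 1.12 in erythroid-like and 1.23 in white-blood-cell-like cells on the log2 scale. Ckap5, a microtubule polymerase gene, fell by 1.14 and 1.201 in the last 2 classes, and Cenpe, a kinetochore motor gene, by 1.17 and 1.04.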

How the data were processed

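Single-cell RNA was measured in 2 libraries of whole hearts at E11.5, grouped by the labels. The authors deposited UMI counts per Ensembl gene and barcode, not normalised, per the file headers. The submitters' processing notes name Cell Ranger 5.0.1, Seurat 4 and GRCm38.p6, without their roles. The authors also deposited embedding coordinates, a score used here only to mark a subset of cells for an alternative. Members and lists were chosen with earlier results of these data known.

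Kept cells had 500 or more detected genes and no more than 10% of UMIs from mitochondrial genes. The 6% of cells with the highest doublet scores (Scrublet in scanpy 1.11.5) were left out in each library. Counts were scaled to 10000 per cell, and 2000 variable genes without the 151 cell-cycle genes, 30 principal components and 15 neighbours per library (scikit-learn 1.9.0) gave 19 Leiden clusters (leidenalg 0.10.2, resolution 1). Clusters were named from marker lists, and 4 stayed unnamed. The values of 1 cluster are not reported here. Intervals are exact: Poisson for levels, Clopper-Pearson for shares, conditional for ratios (scipy 1.17.1). With 1 library per genotype no test was made. The calls were also run on simulated counts with known changes, drawn for both libraries from the same pooled profile. That simulation held no library effect or length trend, so it does not show how the calls fare with them.

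Genes given in full were Mki67, Top2a, Ccnb1, Cdc20, Pcna, Mcm6, Rrm2, Ccne2 and the 6 G1 regulators. Other members are given by range, all past 2-fold in a class are named, and genes of the other lists are named where past 2-fold in at least 2 classes. Other names, and calls by cluster, were added after seeing the values. Alternatives covered thinning depth, list limits, haemoglobin, phase scores, doublets, cell filters, resolution, scaling, the added CPM and the filter on level. Leaving out genes correlated with the cycle, barcodes of over 5% haemoglobin, and Mki67 were alternatives chosen after seeing the data.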

Additional observations from a re-analysis of the deposited data

How the results depend on the processing

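No paired analysis was possible because each genotype has 1 library, and no replicate could be left out. Differences in share are given in percentage points, H2CKO minus Control. Of the alternative values for the comparisons, 215 stayed within the counting interval or within 1.5 times the count, 46 moved and 4 reversed, and among single values 184 stayed, 105 moved and 1 reversed. The cause of each was not tested unless stated.

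Without thinning, the cardiomyocyte-like differences were 6.07 (G2/M-high) and 9.29 (S-high), and the mesenchymal-like G2/M-high difference was 1.60. With phase by score, they were 1.84 and 3.55 in cardiomyocyte-like, 3.16 and 3.48 in mesenchymal-like, and -6.97 and -4.55 in erythroid-like cells, with S-high differences of 4.005 in epicardial-like cells, reversed from -10.8, and 13.1 in white-blood-cell-like cells. Thinned to 10000 UMIs, G2/M-high differences were 12.7 in mesenchymal-like, 14.0 in epicardial-like, 14.9 in endothelial-like and -8.08 in erythroid-like cells, and S-high differences -0.692 in epicardial-like and -6.27 in erythroid-like cells. Thinned to 2500 UMIs, they were -3.97 (endothelial-like, S-high) and -14.8 (erythroid-like, G2/M-high).

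Among cells with 1500 or more genes and no more than 5% of UMIs from mitochondrial genes, G2/M-high differences were -7.59 in cardiomyocyte-like, 14.7 in endothelial-like and, reversed, 8.49 in erythroid-like cells, and the cardiomyocyte-like S-high difference was -7.54. With cells of the deposited embedding alone, they were 1.73 and 1.13 in cardiomyocyte-like and -20.1 and -10.3 in white-blood-cell-like cells. The epicardial-like G2/M-high difference was 6.06 without doublet removal, 5.27 at resolution 0.5 and 5.21 at resolution 2. With haemoglobin left out before thinning, erythroid-like differences reversed to 1.89 (G2/M-high) and 1.28 (S-high), and the epicardial-like S-high difference was -4.22. With at least 2 list UMIs erythroid-like differences were -10.1 and -9.00, with at least 5 list UMIs -15.6 (G2/M-high), and without Mki67 -3.82 (G2/M-high). The Nppa-Nppb difference reversed to 0.154 with genes correlated with the cycle left out of clustering.

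Centred on the median gene, the S list was higher in 5 of 6 classes instead of 2. Against 2 members past 2-fold, the count was 5 with 12% of cells left out as doublets, 5 with the stricter cell filter, 7 in embedding cells (5 classes, no erythroid-like class), 4 when centred, 10 in thinned cells, 4 with 1 CPM added, 1 with 10 CPM added and 1 above 100 CPM. Against 1936 calls over all genes and classes, the count was 1039 when centred, 3017 with 1 CPM added, 1152 with 10 CPM added and 530 above 100 CPM.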
